A study of Mus musculus with 6 samples.

Results

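Janus kinases (JAKs) and signal transducers and activators of transcription (STATs) were examined in the count table of PYK2 KO and WT macrophages, by taking every row whose symbol was Stat2, Stat3, Stat5a, Stat5b, Stat6, Jak1, Jak2, Jak3 or Tyk2. All 9 symbols were found among the 55291 genes of the table. The cells were bone marrow-derived macrophages (BMDMs), grown from marrow of C57BL/6 mice for 7 days in medium with L929-conditioned supernatant, which supplies the growth factor M-CSF. The WT group held 3 mice (numbered 1, 5 and 6) and the PYK2 KO group 3 mice (numbered 2, 3 and 4), with 1 library per mouse. PYK2 KO mice lacked the tyrosine kinase PYK2 (gene Ptk2b) in the whole body, so the marrow had developed without it, and no IL-4 or other stimulus was named for these cultures. Age and sex of the donor mice are not given in the sources used here.

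Cytokine receptors of this pathway have no kinase of their own. A JAK bound to each receptor chain is activated by the ligand and phosphorylates the chain, a STAT docks on it, is phosphorylated in turn, dimerizes and enters the nucleus to switch on genes. JAK1 serves most of these receptors, JAK2 the receptors of GM-CSF, IL-3 and interferon-γ, JAK3 only receptors with the common γ chain, such as those of IL-4 and IL-21, and TYK2 those of type I interferons, IL-10 and IL-12. STAT6 carries the IL-4 and IL-13 signal that turns macrophages to alternative activation, STAT3 that of IL-10 and IL-6, STAT5A and STAT5B that of GM-CSF, and STAT2 joins IRF9 in the ISGF3 complex of type I interferon. Signaling runs through phosphorylation of proteins already present, which transcript counts do not measure.

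RNA libraries were made from the 3′ end of polyadenylated transcripts, and values are given as counts or as CPM, that is, counts per library scaled to a common library size with edgeR's TMM factors. Total counts ran from 2857097 to 3917207 per library. Ptk2b had 568 to 737 counts in WT and 64 to 71 in PYK2 KO libraries, with a log2 fold change of -3.15, so the genotype labels held. B2m, the light chain of MHC class I, varied across the genotypes, from 213 to 971 CPM in WT and from 523 to 1521 CPM in PYK2 KO libraries. It was highest in WT 1, PYK2 KO 3 and PYK2 KO 4. Both ends of its range were higher in PYK2 KO, so a fit with B2m as a covariate can take up part of a genotype difference. Such fits are given as alternatives, not as corrected values, where they moved a member most and for some other genes and list medians. All 8 macrophage markers were tested, with a summed level of 29147 to 29897 CPM in WT and 30334 to 31332 CPM in PYK2 KO libraries, and no marker passed. Cd79a, Ms4a1, Pax5, Cd3d, Cd3e, Cd8a and all 5 NK cell markers were at 0 in every library, as were Flt3, Zbtb46, Xcr1 and Siglech of dendritic cells. The 7 neutrophil markers summed to 108 to 156 CPM in WT and 118 to 206 CPM in PYK2 KO libraries. Of the 5 tested, 2 (S100a9 and Mpo) were higher at an unadjusted p under 0.05, against 3.4% of all tested genes, and 0 passed the threshold. S100a9 overlapped between genotypes, with 277, 107 and 97 counts in WT and 158, 269 and 346 in PYK2 KO libraries, and Mpo had 4 to 21 counts per library. The part of neutrophil transcripts in the values below was not tested. In such bulk cultures, fewer cells of a type and less RNA per cell cannot be told apart.

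The 5 STAT genes lie on chromosomes 10 and 11 and the 4 JAK genes on chromosomes 4, 8, 9 and 19 (GRCm38, GENCODE M21). Stat6 occupies 127642986 to 127660957 and Stat2 128270559 to 128292849 on chromosome 10, both on the plus strand and 609601 bases apart. On chromosome 11, Stat5b lies at 100780731 to 100850724 on the minus strand, Stat5a at 100859351 to 100885169 on the plus strand and Stat3 at 100885098 to 100939540 on the minus strand. The gap between Stat5b and Stat5a is 8626 bases, and the 3′ ends of Stat5a and Stat3 overlap by 72 bases. The 3′ end of Stat6 overlaps that of Nab2 by 40 bases. Because counts were read at 3′ ends and the use of strand in counting is not stated in the sources used here, reads in these short overlaps could not be assigned with certainty. Nab2 itself had a log2 fold change of 0.058 (95% interval -0.30 to 0.41). Jak1 spans 101152367 to 101265282 on chromosome 4 and Tyk2 21104068 to 21131243 on chromosome 9, both on the minus strand. Jak2 spans 29251828 to 29313080 on chromosome 19 and Jak3 71676296 to 71690575 on chromosome 8, both on the plus strand. The last 1362 bases of Jak3 as annotated also hold Insl3, which had 1 count over all libraries.

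Promoter sequences were read for the members (RefSeq, GRCm38.p6, 250 bases before to 50 after a transcript start), which matched all 9 genes with 11 windows. They were searched on both strands for 3 motifs that STAT complexes are known to bind, TTC and GAA with 3 free bases between (most STAT dimers), TTC and GAA with 4 free bases between (favored by STAT6) and TTTC followed by TTTC with 2 free bases between (a core of the interferon-stimulated response element bound by ISGF3). Over all 32851 promoter windows of the table, 8.3% held the first, 6.95% the second and 3.44% the third. Among the members only the Stat2 window held any of them. The windows of Stat2 and Stat6 are shown because these 2 genes had the smallest p-values among the members. Capitals mark the motif matches.
Stat2 (chr10:128270248-128270547, plus strand): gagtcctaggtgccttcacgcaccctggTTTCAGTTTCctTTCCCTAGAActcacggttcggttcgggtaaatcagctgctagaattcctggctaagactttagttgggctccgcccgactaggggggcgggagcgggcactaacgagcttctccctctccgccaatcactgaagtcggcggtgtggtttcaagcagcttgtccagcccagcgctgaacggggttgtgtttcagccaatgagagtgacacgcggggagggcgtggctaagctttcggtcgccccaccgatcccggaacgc
Stat6 (chr10:127642736-127643035, plus strand): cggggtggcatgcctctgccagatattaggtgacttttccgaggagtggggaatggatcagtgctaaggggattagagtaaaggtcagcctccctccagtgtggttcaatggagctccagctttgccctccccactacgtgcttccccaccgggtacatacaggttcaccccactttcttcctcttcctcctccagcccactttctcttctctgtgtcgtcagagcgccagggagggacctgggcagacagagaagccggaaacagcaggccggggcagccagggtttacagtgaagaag
In Stat2 the pair of TTTC began at -222 and the TTC and GAA with 4 bases between at -210 from the transcript start, side by side without overlap. The Stat6 window held 0 matches, which says only that these letters are not in it.

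All 9 members were expressed in both genotypes and passed the filter on low counts. As 3′ end reads, Stat6 was highest at a mean of 164 CPM over the 6 libraries, followed by Jak1 at 157, Stat3 at 135, Stat5b at 79.7, Tyk2 at 69.7, Stat2 at 64.5, Stat5a at 45.8, Jak2 at 26.1 and Jak3 at 20.8 CPM. The order fell into steps: every library of Jak1 lay above every library of Stat3, every one of Stat3 above Stat5b, every one of Stat2 above Stat5a and every one of Stat5a above Jak2. Neighbors that overlapped were Stat6 and Jak1, Stat5b and Tyk2, Tyk2 and Stat2, and Jak2 and Jak3. Per kilobase of annotated exon sequence, Stat6 stayed first at 37.4 CPM per kb and Jak1 second at 21.7, and Jak3 stayed last at 3.88. Stat3 moved behind Stat5b on that scale, at 14.2 against 14.4 CPM per kb, and Tyk2 moved behind Stat2. Since a 3′ end library counts 1 end per transcript, the scale without length is the one nearer to transcript number, although capture can differ between genes.

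**Figure D1:**
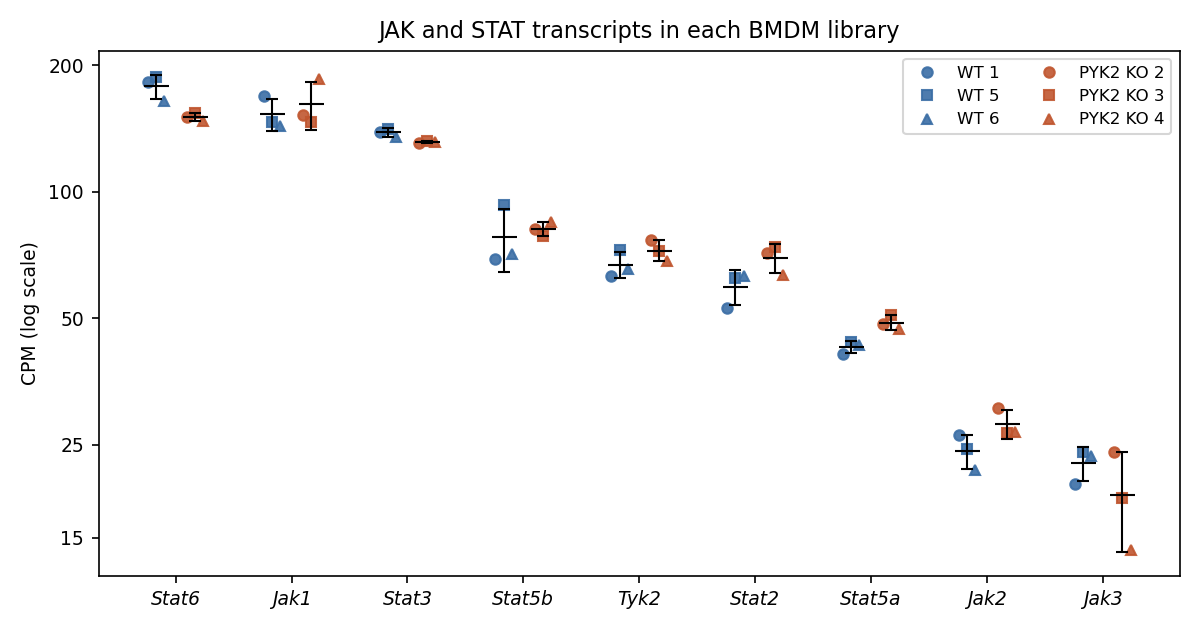
CPM of each member (log axis) in the 3 WT libraries (blue) and the 3 PYK2 KO libraries (orange), with mean and SD as black bars. Stat6, Jak1 and Stat3 lie above 130 CPM in all libraries and Jak2 and Jak3 below 31 CPM, and the 3 PYK2 KO values of Stat6 lie below the 3 WT values.

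Added together, the members gave 763 ± 31.7 CPM in WT against 763 ± 7.75 CPM in PYK2 KO macrophages (SD, n = 3 mice per genotype), a difference smaller than the spread between mice. Which members differed between genotypes was asked with edgeR's quasi-likelihood test over all 9815 tested genes, and p-values were adjusted by the Benjamini-Hochberg method. With a threshold of 0.05 on the adjusted value, 0 of the 9 members passed, against 0.255% of all tested genes (0.143% lower and 0.112% higher), and 0 passed with DESeq2, with limma voom or with edgeR's likelihood ratio test. At an unadjusted p under 0.05 there were 2 members, against 6.03% of all tested genes. These were Stat6, with the lower level in PYK2 KO macrophages (2.63% of all tested genes), and Stat2, with the higher level (3.4% of all tested genes). In 5 of the 9 members the genotypes did not overlap, against 10.2% of all tested genes. PYK2 KO was higher in 3 of these (Stat2, Stat5a and Jak2, against 5.17% of all tested genes) and lower in 2 (Stat3 and Stat6, against 5.07%). The median log2 fold change of the members was 0.079, against 0.0019 for all tested genes, with 6 members above 0 and 3 below.

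Stat6, the transcription factor of IL-4 signaling, was the member with the smallest p-value. Its level was 182, 187 and 165 CPM in WT libraries 1, 5 and 6, and 151, 154 and 147 CPM in PYK2 KO libraries 2, 3 and 4. The groups did not overlap, and the lowest WT library, number 6, was nearest to the PYK2 KO range. The fitted log2 fold change was -0.24 (standard error 0.081, 95% interval -0.41 to -0.072), or 84.6% of the WT level (95% interval 75.0% to 95.2%). Its p-value ranked 141 among all tested genes and was 0.583 after adjustment (edgeR, quasi-likelihood test), so Stat6 did not pass over all genes. The unadjusted p stayed under 0.05 in all 9 other settings and with any of the 6 libraries left out, where the log2 fold change ran from -0.29 to -0.21, while the adjusted p ran from 0.379 to 0.9998 over the other settings (edgeR, DESeq2 and limma). The 3 tested genes with the most similar profile over the 6 libraries, by root mean square distance between centered log2 CPM values, were Tef at 0.022, Flcn at 0.022 and Aldh1b1 at 0.038, against a median distance of 0.174 over 6131 genes. Tef encodes a PAR-domain transcription factor and Flcn the tumor suppressor folliculin.

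Stat2, the subunit particular to ISGF3, was the only other member at an unadjusted p under 0.05. It had 52.9, 62.4 and 63.1 CPM in the WT libraries and 71.5, 73.8 and 63.5 CPM in the PYK2 KO libraries. The groups did not overlap, but PYK2 KO 4 lay only just above WT 6. The log2 fold change was 0.23 (adjusted p = 0.827, edgeR), with a standard error of 0.11 and a 95% interval from 0.00010 to 0.46, so the lower end only just cleared 0. It was 0.15 (adjusted p = 0.888, edgeR) without WT 1, in which Stat2 was lowest, and 0.37 (adjusted p = 0.442, edgeR) with B2m as a covariate. Stat2 no longer had an unadjusted p under 0.05 in 5 of the 9 other settings, DESeq2 and limma voom among them, and adjusted values over these settings ran from 0.442 to 0.9998. Nor did it without WT 1, WT 5, PYK2 KO 2 or PYK2 KO 3 (unadjusted p = 0.206, 0.0527, 0.119 and 0.162, edgeR). The closest profiles were those of Cetn3 at 0.043, Cgnl1 at 0.046 and Isg20l2 at 0.052, against a median distance of 0.194.

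Stat5a and Stat5b encode nearly the same protein and transmit GM-CSF signals. The WT libraries held 41.1, 43.9 and 43.1 CPM of Stat5a and the PYK2 KO libraries 48.4, 50.9 and 47.1 CPM, without overlap. Its log2 fold change was 0.19 (95% interval -0.04 to 0.43, adjusted p = 0.896, edgeR), and it stayed between 0.16 and 0.22 with 1 library left out. Of Stat5b they held 69.2, 93.2 and 71.2 CPM and 81.5, 78.6 and 84.6 CPM, in the same order. WT 5 was the highest and the other two WT libraries the lowest, so the groups overlapped, with a log2 fold change of 0.067 (95% interval -0.17 to 0.31, adjusted p = 0.980, edgeR), which was 0.15 with B2m as a covariate. With 1 library left out it ran from -0.018 without WT 1 to 0.22 without WT 5. Transcripts of the pair share a stretch of up to 324 bases, but within the last 1000 bases, where a 3′ end library reads, the longest shared stretch was 9 bases. The ratio of Stat5a to Stat5b counts was 0.594, 0.471 and 0.606 in WT and 0.594, 0.648 and 0.556 in PYK2 KO libraries. These ratios overlapped and differed by 0.11 on the log2 scale (exact permutation test, two-sided, p = 0.5, where 3 against 3 mice cannot go below 0.1).

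Stat3, the transducer of IL-10 and IL-6, varied least. WT libraries had 139, 141 and 135 CPM and PYK2 KO libraries 131, 132 and 131 CPM. The genotypes did not overlap, yet the gap was small, with a log2 fold change of -0.074 (95% interval -0.24 to 0.092, adjusted p = 0.950, edgeR). The coefficient of variation between mice was 2.25% in WT and 0.664% in PYK2 KO, below the 4.58% and 4.94% that counting alone would give at these depths. As a share of the WT level, the interval of the difference spans 84.6% to 107%.

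Jak1 was the most abundant kinase of the family. Its CPM were 169, 146 and 144 in WT and 152, 147 and 185 in PYK2 KO libraries, with PYK2 KO 4 and WT 1 the highest. The groups overlapped, and the log2 fold change of 0.079 (95% interval -0.13 to 0.29, adjusted p = 0.964, edgeR) became -0.035 without PYK2 KO 4 and -0.078 with B2m as a covariate. PYK2 KO 4 and WT 1 were also among the 3 libraries with the highest B2m, at 1521 and 971 CPM, while PYK2 KO 3 had 1046 CPM of B2m and only 147 CPM of Jak1. The part of this in the Jak1 values was not tested further. Tyk2, the partner of JAK1 at type I interferon and IL-10 receptors, had CPM of 63.1, 72.5 and 65.5 in WT and 76.7, 72.4 and 68.3 in PYK2 KO libraries. These ranges overlapped, with a log2 fold change of 0.11 (95% interval -0.10 to 0.32, adjusted p = 0.937, edgeR), and of 0.20 with B2m as a covariate. It was 0.065 without WT 1, 0.067 without PYK2 KO 2 and 0.17 without WT 5.

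Jak2 and Jak3 were the least abundant members, at 47 to 103 counts per library. Jak2 reached 26.3, 24.4 and 21.7 CPM in WT against 30.5, 26.7 and 26.8 CPM in PYK2 KO libraries, without overlap but with WT 1 just under the lowest PYK2 KO value. Its log2 fold change was 0.21 (95% interval -0.096 to 0.51, adjusted p = 0.927, edgeR). Jak3, the kinase of the common γ chain, reached 20.2, 24.1 and 23.5 CPM in WT against 24.1, 18.7 and 14.0 CPM in PYK2 KO libraries. PYK2 KO 2 lay at the top of the WT range and PYK2 KO 4 far below it, giving the largest coefficient of variation of any member in either genotype, 26.6%, against 13.1% from counting alone. Its log2 fold change was -0.25 (95% interval -0.65 to 0.14, adjusted p = 0.935, edgeR). Single libraries decided this value, which was -0.069 without PYK2 KO 4 and -0.47 (adjusted p = 0.648, edgeR, with an unadjusted p under 0.05) without PYK2 KO 2, and it was 0.013 with B2m as a covariate. Of lymphoid cells, which also express Jak3, the T cell markers summed to 5.61 to 8.96 CPM in WT and 5.07 to 7.06 CPM in PYK2 KO libraries, mostly Cd4, with Cd3d, Cd3e and Cd8a at 0.

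**Figure D2:**
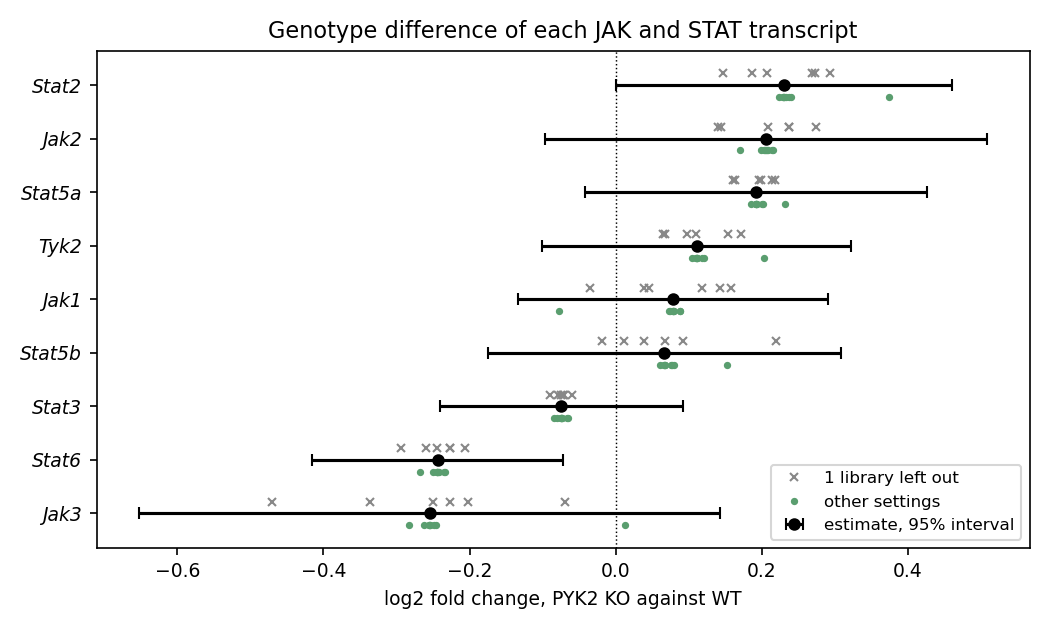
Log2 fold change of each member in PYK2 KO against WT BMDMs (black points) with its 95% interval, fits with 1 library left out (gray crosses) and fits with other settings (green points). Stat6 lies below 0 in every fit shown, Jak1 and Stat5b cross 0 when a library is left out, and the Jak3 value moves from -0.47 to -0.069 with a library left out and to 0.013 with B2m as a covariate.

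A measure free of library scaling was the share that each member took of the summed counts of all 9, which came to 2087 to 2986 counts per library. Stat6 held 23.9%, 23.6% and 22.5% of them in WT libraries 1, 5 and 6, with exact Clopper-Pearson 95% intervals from 20.7% to 25.5%, and 19.7%, 20.4% and 19.2% in PYK2 KO libraries 2, 3 and 4, with intervals from 17.7% to 22.2%. The intervals cover counting error only, taking each count as a separate molecule. The mean share was 23.3% ± 0.723 in WT and 19.8% ± 0.644 in PYK2 KO (SD, n = 3 mice per genotype), a difference of -3.57 percentage points (p = 0.1 in an exact two-sided permutation test, which is as low as this design can go, and 0.225 after adjustment over 9 shares). In WT libraries 1, 5 and 6 Stat6 took the largest share, while in PYK2 KO 4 Jak1 did, with 24.1%, and in PYK2 KO 2 Jak1 had 19.9% against 19.7% of Stat6. The shares of Stat3 (-0.91 percentage points), Stat5a (0.80) and Jak2 (0.51) did not overlap between genotypes either, each at p = 0.1 in the exact permutation test. Shares of 1 total are tied together, so the lower Stat6 share raises the other shares in sum, and they are not separate results. As shares of the STAT counts alone or the JAK counts alone, Stat6 (-4.62 percentage points) and Stat5a (1.51) stayed at p = 0.1, while Stat3 (-0.63) was at p = 0.4 and Jak2 (0.94) at p = 0.3 in the same exact permutation test. On that scale Stat2 (2.44) was at p = 0.1 in the exact permutation test. Stat2 lay above the WT range in PYK2 KO 2 and PYK2 KO 3 but not in PYK2 KO 4, with 6.93%, 7.85% and 8.62% in WT and 9.33%, 9.78% and 8.26% in PYK2 KO libraries (exact permutation p = 0.2). The summed JAK counts were 0.538 ± 0.034 of the summed STAT counts in WT and 0.583 ± 0.041 in PYK2 KO (SD, n = 3 mice per genotype).

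**Figure D3:**
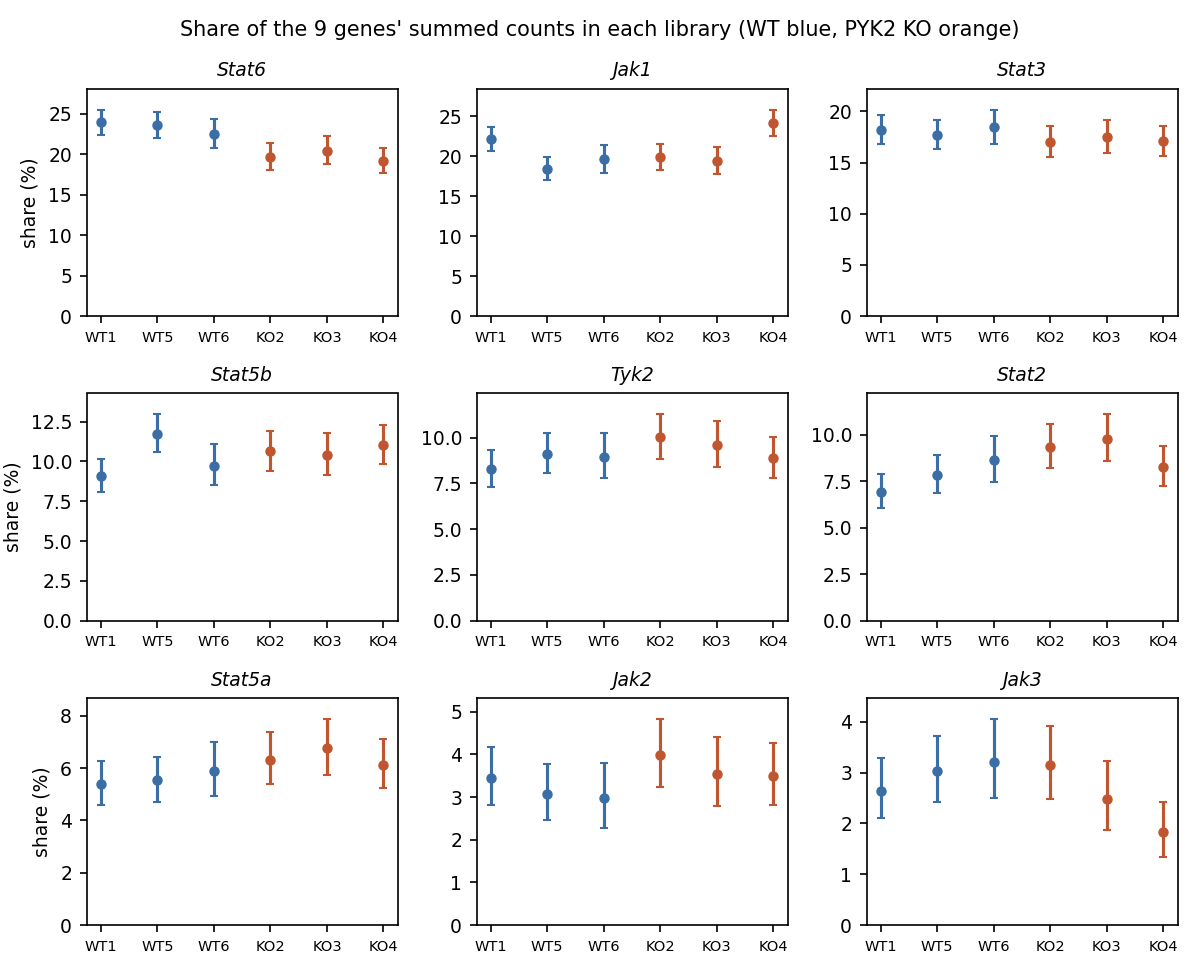
Share of each member in the summed counts of the 9 members, in percent, for each library (WT blue, PYK2 KO orange) with exact Clopper-Pearson 95% intervals. The Stat6 shares lie between 22.5% and 23.9% in WT and between 19.2% and 20.4% in PYK2 KO libraries, and the Jak1 share is highest in PYK2 KO 4.

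The receptor chains that carry these kinases were examined as a list of 43 genes, of which 22 passed the filter and 13 had no count in any library. One receptor passed the threshold over all genes. Csf2rb2, a β chain of the IL-3 receptor, had 708, 528 and 377 counts in WT and 312, 326 and 344 in PYK2 KO libraries. It fell from 154 ± 24.8 CPM in WT to 105 ± 6.81 CPM (SD, n = 3 mice per genotype), by 0.55 on the log2 scale (adjusted p = 0.0451, edgeR). It did not pass with upper quartile normalization (adjusted p = 0.0567), without a scaling factor (0.0662), in limma voom (0.0701) or in 5 of the 6 fits with 1 library left out, where only the fit without WT 6 kept it. Csf2rb, the closely related common β chain used by JAK2 and STAT5, had a log2 fold change of -0.23 (adjusted p = 0.718, edgeR), and reads of the pair may be divided between them. It was -0.14 without WT 1 and -0.39 with B2m as a covariate. Il21r, the IL-21 receptor chain that pairs with the common γ chain, was named after its value was seen and had -0.21 (adjusted p = 0.814, edgeR). These 3 of 22, all lower, were the receptors at an unadjusted p under 0.05, against 2.63% of all tested genes that were lower at that level and 0.143% that were lower past the adjusted threshold. Of the 22 tested chains, 19 were below 0 and 3 above, with a median log2 fold change of -0.094 (0.0019 over all tested genes), while 49.5% of all tested genes were below 0.

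Placed beside the kinases and STATs they use, the receptors gave the following levels, each as mean ± SD of 3 mice in WT and then in PYK2 KO. Il4ra, the IL-4 receptor chain that recruits STAT6, was at 147 ± 4.85 and 142 ± 9.71 CPM, with an interval of the log2 fold change from -0.23 to 0.12. Its partner chain Il2rg, which binds JAK3, was at 271 ± 19.2 and 285 ± 30.2 CPM, and the alternative partner Il13ra1 had 4 to 16 counts per library and was not tested. For IL-10, Il10rb was the most abundant receptor of the list at 444 ± 29.3 and 425 ± 12.7 CPM and Il10ra was at 80.4 ± 13.7 and 72.0 ± 10.8 CPM. For type I interferon, Ifnar1 was at 60.5 ± 5.46 and 59.9 ± 3.27 CPM and Ifnar2 at 114 ± 15.3 and 109 ± 8.26 CPM. For GM-CSF, the α chain Csf2ra was at 307 ± 16.1 and 293 ± 16.9 CPM. The genotypes overlapped for each of these 7 tested genes. They did not for Ifngr1 of the interferon-γ receptor, named after its value was seen, at 210 ± 1.08 and 195 ± 0.664 CPM (adjusted p = 0.926, edgeR). Of the 22 tested chains, 3 were lower without overlap and 0 higher, against 5.07% and 5.17% of all tested genes.

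Cytokine ligands had few counts. Of 27 listed, 3 passed the filter and 13 had no count, among them Ifnb1, Ifng, Il6, Il12b and Csf2, where 3 counts, the limit that a count of 0 allows, correspond to at most 1.05 CPM in a library. Ebi3, a subunit of IL-27 and IL-35, was the most abundant at 179 ± 9.06 and 180 ± 15.5 CPM in WT and PYK2 KO cells (SD, n = 3 mice per genotype). Osm, which encodes oncostatin M, had 45, 36 and 34 counts in WT and 18, 29 and 24 in PYK2 KO libraries, with a log2 fold change of -0.55 (adjusted p = 0.783, edgeR). Il15, which signals through JAK1 and JAK3, had a log2 fold change of 0.30 (adjusted p = 0.892, edgeR).

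Of 19 negative regulators, 17 were tested, 0 passed, 4 were above 0 and 13 below, with a median log2 fold change of -0.060 (-0.14 with B2m as a covariate). Without WT 6, PYK2 KO 4 or PYK2 KO 2 that median was -0.11, -0.12 or -0.096. The phosphatase genes Ptpn6 (SHP-1) at 481 ± 6.45 and 462 ± 37.2 CPM and Ptprc (CD45) at 275 ± 26.7 and 280 ± 26.6 CPM were the most abundant, in WT and PYK2 KO BMDMs respectively (SD, n = 3 mice per genotype). Sh2b3, an adaptor that restrains JAK2, was the single regulator at an unadjusted p under 0.05 (2.63% of all tested genes were lower at that level), at 123 ± 5.64 and 107 ± 2.31 CPM without overlap (log2 fold change -0.20, adjusted p = 0.728, edgeR). Pias2 had 0.34 (adjusted p = 0.935, edgeR), with 0.57 without PYK2 KO 2, 0.15 without PYK2 KO 3 and 0.080 with B2m as a covariate. Socs1 and Socs2, feedback inhibitors induced by active STATs, had at most 2 counts in any library. Socs3 and Cish, inhibitors of the same kind named after their values were seen, passed the filter. They had 46 to 81 and 6 to 25 counts per library, with log2 fold changes of -0.20 and -0.49 (adjusted p = 0.935 each, edgeR) and overlapping genotypes. Among the partners and the STAT genes outside the 9 members, 0 of 12 passed, also at an unadjusted p under 0.05. Snd1, a STAT coactivator, was at 90.0 ± 2.76 and 96.0 ± 11.8 CPM and Irf9, which binds STAT2, at 52.0 ± 3.72 and 54.7 ± 6.18 CPM (SD, n = 3 mice per genotype), with the genotypes overlapping in both. Stat4 had 21 to 50 counts per library with a log2 fold change of 0.46 (adjusted p = 0.903, edgeR), which became -0.0084 with B2m as a covariate, 0.82 without WT 1 and 0.21 without WT 5. Sh2b2 had -0.23 (adjusted p = 0.926, edgeR), and -0.13 with B2m as a covariate.

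Genes downstream of each STAT were listed from general knowledge. Of 20 STAT6 targets of alternatively activated macrophages, 11 were tested and 0 passed, also at an unadjusted p under 0.05, with 6 above 0, 5 below and a median of 0.028. This median turned to -0.074 with B2m as a covariate, -0.079 without a filter, -0.012 without PYK2 KO 2 and -0.0011 without PYK2 KO 4, and was 0.097 with at least 10 counts in every library, 0.017 in limma voom, 0.053 without WT 5 and 0.045 without WT 6. Retnla and Ccl17, which mark strong IL-4 exposure, had 0 counts in every library. Mrc1, the mannose receptor, was at 105 ± 22.4 and 125 ± 25.9 CPM and Tgm2 at 133 ± 15.2 and 133 ± 8.18 CPM in WT and PYK2 KO BMDMs (SD, n = 3 mice per genotype). The lectins Clec10a and Clec7a had log2 fold changes of 0.32 (adjusted p = 0.876, edgeR) and 0.47 (adjusted p = 0.896, edgeR), and the latter was -0.051 with B2m as a covariate. Clec10a was at 0.54 without WT 5 and 0.21 without WT 6, and Clec7a at 0.93 without WT 1 and 0.27 without WT 5. Of 23 ISGF3 targets, 21 were tested, 0 passed and 0 had an unadjusted p under 0.05, with 11 above 0, 10 below and a median of 0.054, which turned to -0.041 without WT 1 and -0.028 without a filter. It was 0.13 without WT 6, 0.11 without PYK2 KO 2, 0.026 without WT 5 and 0.16 with B2m as a covariate, and 0.10 in limma voom or with at least 10 counts in every library. Isg15 had 0.24 (adjusted p = 0.896, edgeR), with 0.12 without WT 5 and 0.36 without WT 6. Dhx58 had -0.27 (adjusted p = 0.862, edgeR), and Bst2, the most abundant, was at 581 ± 22.7 and 565 ± 73.4 CPM (SD, n = 3 mice per genotype).

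For STAT3, 16 of 17 targets were tested, 0 passed, and 3 were lower at an unadjusted p under 0.05 (2.63% of all tested genes), with a median of -0.096 (-0.057 without WT 6). These were the immediate early gene Fos (-1.29, adjusted p = 0.661, edgeR), the RNA-decay factor Zfp36 (-0.46, adjusted p = 0.702, edgeR) and Myc, named after its value was seen (-0.39, adjusted p = 0.783, edgeR). Fos had 293 counts in WT 6 and 42 to 95 in the other libraries, and without WT 6 the log2 fold changes of Fos and Zfp36 were -0.28 and -0.16. Myc, with 120, 122 and 123 counts in WT and 83, 96 and 75 in PYK2 KO libraries, was at -0.25 without WT 6 or without PYK2 KO 4. With B2m as a covariate, Fos, Zfp36 and Myc were at -0.34, -0.16 and -0.18. The abundant targets Cebpb (495 ± 88.3 and 466 ± 49.8 CPM) and Mcl1 (428 ± 52.7 and 461 ± 13.1 CPM) overlapped between WT and PYK2 KO BMDMs (SD, n = 3 mice per genotype). For STAT5, 9 of 12 targets were tested and 0 passed, with Osm the 1 gene at an unadjusted p under 0.05 (lower, as were 2.63% of all tested genes). Their median of -0.11 turned to 0.015 without WT 6, 0.014 with at least 10 counts in every library and 0.0068 without a filter. It was -0.18 without PYK2 KO 4 and -0.016 with B2m as a covariate. Id1 had -0.93 (adjusted p = 0.853, edgeR) and -0.14 without WT 6 (-0.016 with B2m as a covariate), and Bcl2l1 (344 ± 38.3 and 347 ± 44.5 CPM) and Ccnd1 (267 ± 71.1 and 271 ± 47.4 CPM) were the most abundant. In at least 1 of the other settings or fits with 1 library left out, Clec10a, Clec7a, Dhx58, Id1, Il15, Isg15, Pias2 and Stat4 came under an unadjusted p of 0.05, and Csf2rb, Fos, Il21r, Myc, Osm, Sh2b3 and Zfp36 no longer did. No value here tests whether these lists differ from other genes.

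**Figure D4:**
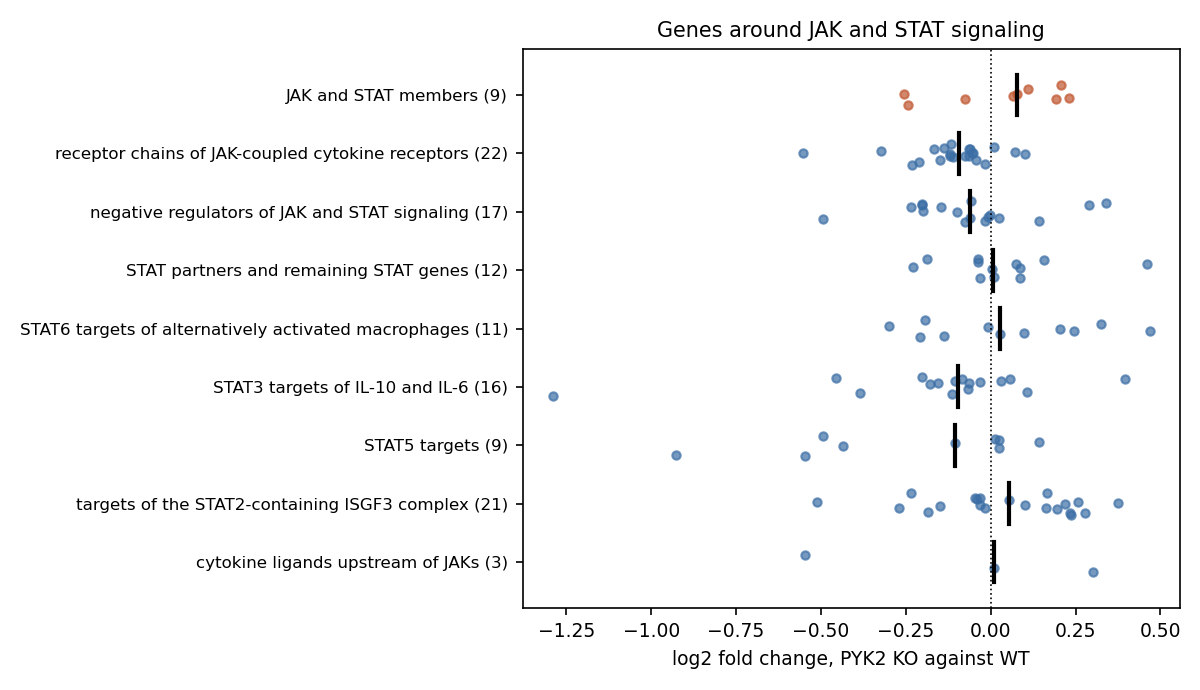
Log2 fold change in PYK2 KO against WT BMDMs of each tested gene in the 9 members (orange) and in 8 lists of genes around them (blue), with the number tested in brackets. Black bars are list medians, from -0.11 for STAT5 targets (0.015 without WT 6) to 0.079 for the members, and the dotted line is the median of all tested genes.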

How the data were processed

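The authors prepared 6 BMDM libraries, from 3 mice per genotype, by a bulk adaptation of MARS-seq, mapped the reads and deposited raw whole-number counts per gene symbol made with the UTAP pipeline. The submitters' processing notes name cutadapt, STAR and the build mm10 (GRCm38). Whether molecular identifiers were collapsed is not stated in the sources used here. If they were not, the counting intervals and the variation from counting alone given for Stat3 and Jak3 are too small. Columns were matched to mice by name, and 0 columns belonged to other samples.

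Counts were analyzed with edgeR 4.0.16 under R 4.3.3, using TMM factors, the filterByExpr rule, genotype as the only term and the quasi-likelihood F test, with Benjamini-Hochberg adjustment over 9815 genes and a threshold of 0.05. The script was checked on simulated counts. Standard errors were derived from each F value and its fold change, and intervals from the t distribution. Alternatives used DESeq2 1.42.0, limma 3.58.1 (voom), other normalizations and filters, B2m as a covariate, shares within the STAT or JAK genes alone and leaving out each library. Libraries of 1 genotype differed beyond sampling noise (chi-square per degree of freedom at least 2.22).

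Members, lists and rules were chosen with earlier results of these data known. Named were all members, Ptk2b, B2m, Il4ra, the 2 genes of each list with the smallest p and the 2 with the highest level, the 3 profiles nearest to each member with an unadjusted p under 0.05 (mean of at least 20 CPM), and genes said to be named after their values were seen or given beside a member. Markers of mast cells and basophils, erythroid and stromal cells had at most 5, 3 and 1 counts per library in sum, and those of B cells 43 to 80, all Cd79b. Fits for named genes outside the members, the members' median and levels under other normalizations were added after seeing the data.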

Additional observations from a re-analysis of the deposited data

How the results depend on the processing

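No paired analysis was possible because mice of the 2 genotypes share no number (WT 1, 5 and 6, PYK2 KO 2, 3 and 4). The number of members past the threshold was 0 in every fit run. The members at an unadjusted p under 0.05 numbered 1, Stat6 alone, with RLE size factors, without a filter, in DESeq2, in the likelihood ratio test and in limma voom, and 1 to 2 with 1 library left out; without PYK2 KO 2 the second was Jak3. Genes past the threshold numbered 159 without a filter, 45 in the likelihood ratio test and 14 to 34 with 1 library left out (15 without WT 5 or PYK2 KO 2, 14 without PYK2 KO 4), against 25. Of the members' fold changes, 131 kept their direction and side of the threshold and 4 reversed: Jak1 (-0.078) and Jak3 (0.013) with B2m as a covariate, Stat5b without WT 1 (-0.018) and Jak1 without PYK2 KO 4 (-0.035). With 1 library left out, they ran from -0.018 to 0.22 for Stat5b and -0.035 to 0.16 for Jak1. Shares reversed for Stat5b without WT 1 (-0.034 percentage points, range -0.034 to 1.29) and Jak1 without PYK2 KO 4 (-0.386, range -0.386 to 2.13), and the log2 Stat5a to Stat5b ratio without WT 5 (-0.0040, range -0.0040 to 0.18). Among other genes, Stat4 (-0.0084) and Clec7a (-0.051) reversed with the B2m covariate and Nab2 without PYK2 KO 2 (-0.15). Without a filter Fos (adjusted p = 1.81e-14) and Zfp36 (adjusted p = 0.0316) passed the edgeR test. The members' median was 0.15 with the B2m covariate and 0.17 without WT 5, and 0.038 without PYK2 KO 4 and 0.039 without WT 6. The causes were not tested. The intervals of Jak2 and Jak3, the members with the fewest counts, were the widest, and the part of depth in this was not tested.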
